A study of Mus musculus with 12 samples.

Results

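The genes described here are 32 genes of glycolysis and of the transcriptional response to low oxygen, measured in CD45+ cells of MC38 tumors. They were chosen by name, with earlier results of these data known, so the counts of members below are descriptions. All 32 are among the 31017 gene symbols of the count matrix. They take up 33 of its 31053 rows, because Aldoa has 2 rows, of which the second held 7 unique molecular identifiers (UMIs, each standing for 1 captured transcript) in the cells kept. The members are the glucose transporters and hexokinases (Slc2a1, Slc2a3, Hk1, Hk2), the enzymes of the glycolytic steps (Gpi1, Pfkl, Pfkp, Aldoa, Aldoc, Tpi1, Gapdh, Pgk1, Pgam1, Eno1, Pkm), the regulators of phosphofructokinase (Pfkfb3, Pfkfb4), the genes of lactate and pyruvate handling (Ldha, Slc16a3, Pdk1), the genes of oxygen sensing (Hif1a, Egln1, Egln3), other genes induced by hypoxia (Bnip3, Vegfa, Adm, Ero1l, P4ha1, Ndrg1, Hilpda, Higd1a) and the cytokine Mif.

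MC38 is a mouse colon carcinoma line, and the tumors grew under the skin of C57BL/6 mice, which the methods of the study give as female. The 12 mice, 3 in each of 4 groups (Vehicle_7d, EZH2i_7d, Vehicle_16d, EZH2i_16d), received daily injections of vehicle or of the EZH2 inhibitor PF-06821497 at 100 mg/kg for 7 or 16 days. Tumors were taken on day 17, and cells were isolated with beads against CD45, the surface protein of leukocytes. The counts came as 1 matrix of 12 libraries, and the labels do not tie library numbers to mice, so no value below compares EZH2i with vehicle and no p-value is given.

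Of 140639 barcodes, 128912 cells (91.7%) were kept, with 3330 to 37413 cells and a median of 2291 to 15081 UMIs per cell in a library. Library 6 held the most cells at the lowest depth, library 4 held 1050 of the 2820 neutrophil-like cells and 6 CD8 T cell-like cells, and libraries 4 and 7 had the highest shares of Arg1-high cells. Levels are given as CPM, the UMIs of a gene per 1000000 UMIs of the cells. Libraries 1 to 6 carried UMIs of 4 Y-linked genes (128 to 209 CPM), although the methods give the mice as female. Libraries 7 to 12 carried none. Barcode sequences shared with a kept cell of another library made up 2.93% of the kept cells. Many values that rest on these libraries are therefore also given without them or by library, but not all. Cells with shared barcode sequences were not left out in any alternative.

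Glycolysis splits glucose to pyruvate in the cytoplasm, and cells short of oxygen, or activated immune cells, turn much of that pyruvate into lactate. The transcription factor HIF-1, whose oxygen-controlled subunit is the product of Hif1a, is marked for destruction by the prolyl hydroxylases Egln1 and Egln3 while oxygen is present. When oxygen is scarce HIF-1 persists and raises the transcription of glucose transporters, most glycolytic enzymes and genes such as Vegfa and Bnip3, through sites with the core ACGTG or GCGTG in promoters and enhancers. Myeloid cells in solid tumors are known for this state, and arginase (Arg1), which breaks down arginine, marks part of the tumor macrophages.

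Promoter windows from RefSeq (GRCm38.p6, 250 bases before to 50 after a transcription start) were at hand for 30 of the 32 members, and 35 of their 42 windows (83.3%) held ACGTG or GCGTG on either strand. Over all 32851 windows the share was 43.8%. The median GC content was 63.8% in the members' windows and 52.7% in all windows, and its part in this difference was not tested. The 250 bases before the most upstream start are printed for 5 members, of which Adm, Egln3 and Bnip3 were among the 4 with the largest ratios between Arg1-high and other macrophage-like cells, Hilpda is a member whose level in neutrophil-like cells was far above that in macrophage-like cells, and Slc2a1 is the transporter through which glucose enters. Capitals mark the matches of either core on either strand.
Adm (chr7:110627407-110627656, + strand): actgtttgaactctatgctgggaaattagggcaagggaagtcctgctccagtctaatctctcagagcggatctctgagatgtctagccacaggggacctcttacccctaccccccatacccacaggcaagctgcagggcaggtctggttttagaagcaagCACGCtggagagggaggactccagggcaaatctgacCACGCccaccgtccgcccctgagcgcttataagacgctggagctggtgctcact
Egln3 (chr12:54203875-54204124, - strand): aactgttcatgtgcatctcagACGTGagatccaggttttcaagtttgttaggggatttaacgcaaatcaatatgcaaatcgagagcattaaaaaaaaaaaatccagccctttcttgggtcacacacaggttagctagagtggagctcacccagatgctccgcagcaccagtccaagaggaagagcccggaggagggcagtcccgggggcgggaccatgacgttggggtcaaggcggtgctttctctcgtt
Bnip3 (chr7:138909507-138909756, - strand): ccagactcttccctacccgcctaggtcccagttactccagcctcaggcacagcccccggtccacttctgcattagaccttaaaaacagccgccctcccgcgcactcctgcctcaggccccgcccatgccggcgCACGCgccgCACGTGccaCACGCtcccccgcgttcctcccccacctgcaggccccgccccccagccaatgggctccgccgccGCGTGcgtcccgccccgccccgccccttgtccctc
Slc2a1 (chr4:119108495-119108744, + strand): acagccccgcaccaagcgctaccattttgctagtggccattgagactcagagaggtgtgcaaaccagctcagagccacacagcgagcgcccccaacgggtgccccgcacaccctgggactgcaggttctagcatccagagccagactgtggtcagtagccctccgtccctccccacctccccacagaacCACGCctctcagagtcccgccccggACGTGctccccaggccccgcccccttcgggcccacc
Hilpda (chr6:29272238-29272487, + strand): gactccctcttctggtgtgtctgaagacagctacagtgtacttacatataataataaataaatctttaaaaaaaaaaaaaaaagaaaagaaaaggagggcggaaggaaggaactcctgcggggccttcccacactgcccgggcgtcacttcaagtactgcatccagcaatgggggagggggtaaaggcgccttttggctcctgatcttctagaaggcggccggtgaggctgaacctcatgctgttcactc
Bnip3 held 5 matches, a pair of which overlap in the palindrome CACGTG, Adm and Slc2a1 held 2 each, and Egln3 held 1. The printed Hilpda stretch held 0, but both of its windows held a match once the 50 bases after the start were included, with up to 3 in a window. A match is a run of letters, not a measured binding site.

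Cells were put into classes by their UMIs of lineage marker genes, none of which is a member, and the classes are called "-like" for that reason. A class needed at least 2 UMIs of its list, and that list had to make up at least 80% of the cell's UMIs over 10 lists. In this way 107166 cells found a class and 21746 (16.9%) did not. Among genes that these lists did not use, S100a8 stood at 22670 CPM in neutrophil-like and 22.1 in macrophage-like cells, Apoe at 18845 in macrophage-like and 784 in CD8 T cell-like cells, Trbc2 at 1110 in CD8 T cell-like cells, and Igkc at 33130 in B cell-like cells. The 125 collagen-gated cells had Ptprc, the CD45 gene, at 31.0 CPM, against 365 in macrophage-like cells. The keratin gate meant for tumor cells held 0 cells, so no tumor cell class could be described.

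Neutrophil-like cells had the highest level of the 32 genes together, at 201 UMIs per 10000 UMIs of the cells (exact Poisson 95% interval 199.9 to 202, which covers counting error only; 2820 cells). Arg1-high macrophage-like cells followed at 160.0, the collagen-gated cells at 147, monocyte-like cells at 123 and other macrophage-like cells at 85.8. CD4 T cell-like cells stood at 83.2, near the other macrophage-like cells, and their order was not settled. They were above those cells in 3 of the 5 libraries that held 50 or more of each, and without library 8, which held 236 of their 707 cells, the levels were 90.0 and 84.5 per 10000. Lower values were those of 69.9 in CD8 T cell-like, 68.5 in dendritic cell-like, 58.6 in NK cell-like, 40.2 in plasmacytoid dendritic cell-like and 32.1 in B cell-like cells. Where a library held 50 or more cells of a class, the level was 113.1 to 254.4 (median 189.8, 10 libraries) in neutrophil-like and 118 to 224 (median 175, 12 libraries) in Arg1-high cells.

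These top classes overlapped, and neutrophil-like cells were above Arg1-high cells in 5 of 10 libraries. Monocyte-like cells (85.8 to 141) lay below Arg1-high cells in 12 of 12 libraries and above other macrophage-like cells (71.2 to 98.7) in 12 of 12. CD4 T cell-like cells were above CD8 T cell-like cells in 8 of 10 libraries that held 10 or more of each. Gapdh, the glyceraldehyde-3-phosphate dehydrogenase gene, gave 27.0% of the members' UMIs in macrophage-like cells, and Mif gave 9.23%, so the sum leans on them. In neutrophil-like cells Hilpda gave 21.5%, Gapdh 12.1% and Mif 5.52%, whereas Hilpda gave 2.77% in macrophage-like cells. The neutrophil-like sum and its rank therefore lean on Hilpda, and no sum was taken without it. The members of glycolysis, from glucose entry to lactate and pyruvate, stood at 112 per 10000 in neutrophil-like and 122 in Arg1-high cells. The members of oxygen sensing and the other hypoxia-induced genes stood at 77.8 and 22.9. The counts are 3' UMIs and were not divided by gene length, and a level is compared between cells, not between genes.

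**Figure D1:**
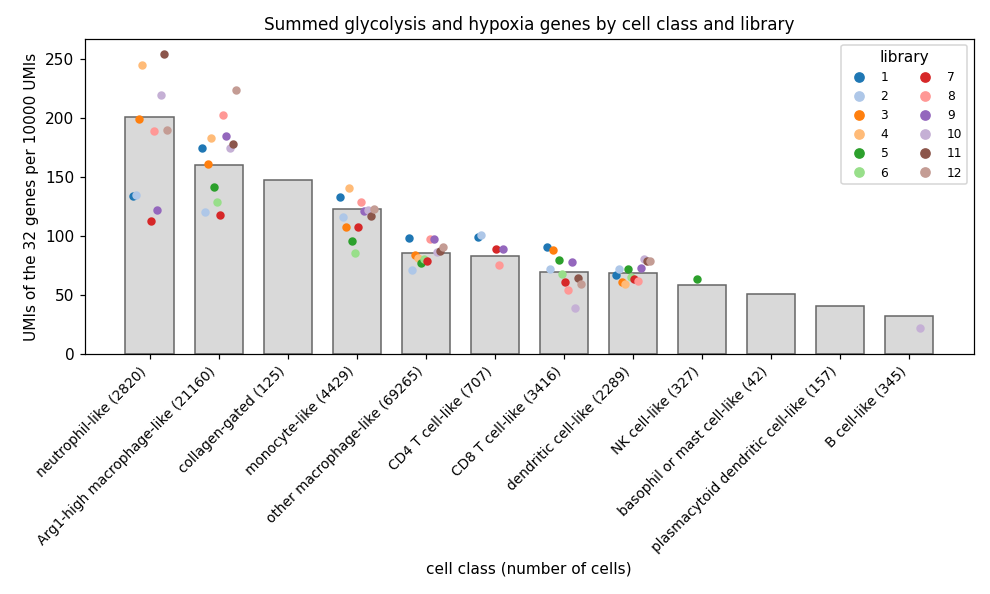
UMIs of the 32 genes per 10000 UMIs (vertical axis) in each cell class (horizontal axis, number of cells in brackets); bars are the 12 libraries pooled and points are single libraries with at least 50 cells of the class. Neutrophil-like (201) and Arg1-high macrophage-like cells (160.0) are highest, B cell-like cells (32.1) are lowest, and the points of the top 2 classes overlap.

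**Figure D2:**
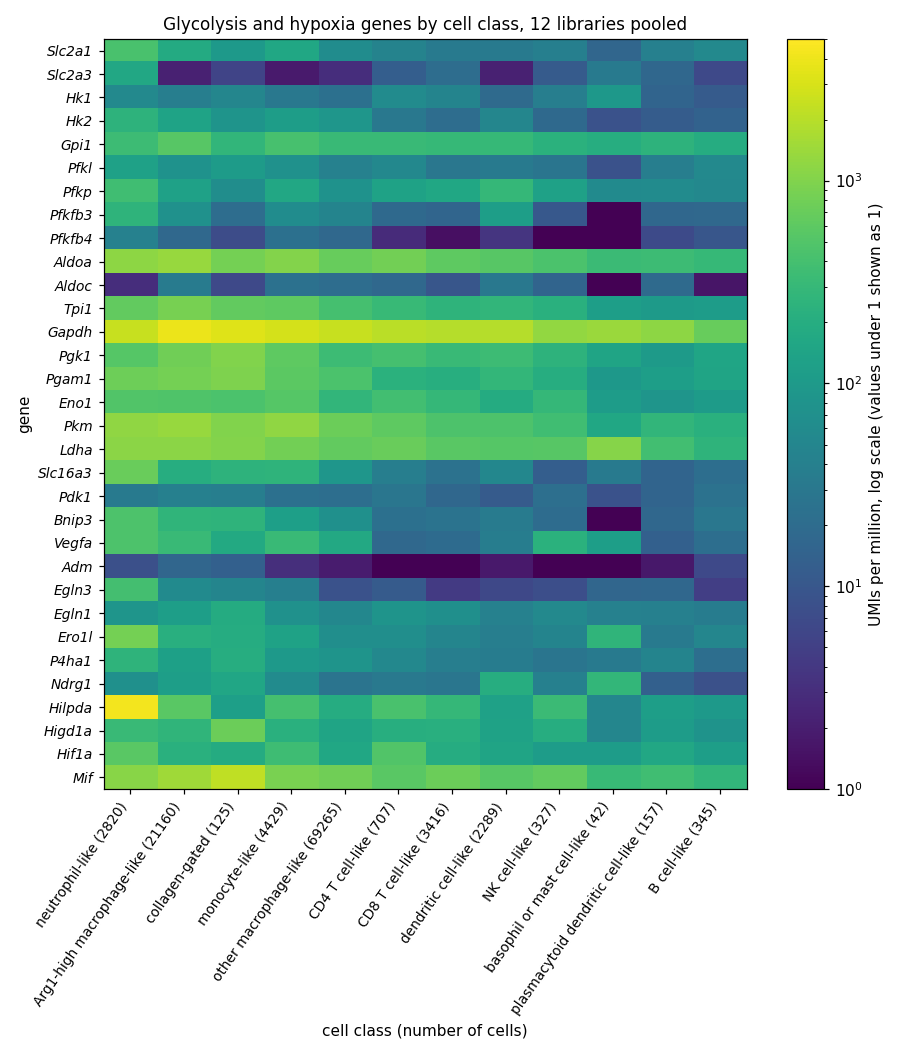
Level of each of the 32 genes (rows) in each cell class (columns, number of cells in brackets), as CPM over 12 pooled libraries on a log colour scale. Gapdh is high in every class, Hilpda peaks in neutrophil-like cells (4315 CPM), Ndrg1 in basophil or mast cell-like and dendritic cell-like cells, and Slc2a3 in neutrophil-like cells.

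The first comparison asked how macrophage-like cells with high Arg1 differ from the rest. Arg1-high cells, with Arg1 at 10 or more per 10000 UMIs, were 21160 of the 90425 macrophage-like cells, and 7235 cells lay near that limit, at 8 to under 12.5. The summed members were 1.86-fold higher in Arg1-high cells. Of the 30 members with at least 10 CPM over both groups, 28 were at least 1.5-fold higher, against 3.84% of the 7316 genes at that level, and 0 were at least 1.5-fold lower, against 1.6%. The median ratio was 1.83 over these 30 members and 0.982 over the 7316 genes. Members higher in all 12 libraries numbered 29 of the 30 (12.2% of the 7316 genes), and for 16 of the 30 the 2 sets of library values did not overlap (0.615%). In the other direction 0 members were lower in all 12 libraries (17.2%) and 0 lay wholly below (0.0683%).

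Egln3 was counted through its level in Arg1-high cells alone, so its place among the 28 was given by the limit on low levels, and its values are a description. Egln3, one of the hydroxylases that turn HIF-1 over, stood at 58.8 CPM in Arg1-high and 8.67 in other macrophage-like cells, 6.78-fold. Its library values ran from 21.8 through a median of 47.1 to 132 in Arg1-high cells and from 4.88 through 6.92 to 20.1 in the others. The lowest Arg1-high library was above the highest of the others, and the highest Egln3 level of both groups was that of library 4. Egln1, its relative, differed 2.29-fold (119 against 51.7 CPM). Hif1a itself differed 1.40-fold (225 against 161), under the limit of 1.5, and was higher in 12 of 12 libraries, with ranges (134 to 443 against 110.0 to 243) that overlapped.

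All 8 other hypoxia-induced genes were higher in Arg1-high cells in 12 of 12 libraries, and 7 of them reached the level at which genes were counted. Ndrg1, a stress-response gene, ran from 51.2 to 306 CPM over libraries in Arg1-high cells (median 124) and from 16.2 to 45.5 in the others (median 24.2), 4.46-fold pooled. Bnip3, which directs the removal of mitochondria, ran from 136 to 429 against 50.3 to 97.6, 3.61-fold. In both genes every Arg1-high library was above every value of the other cells. Ero1l, an oxidase of the endoplasmic reticulum, differed 3.20-fold (213 against 66.8), and Hilpda, a lipid droplet protein, differed 2.90-fold (572 against 197).

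Vegfa, the growth factor for blood vessels, differed 1.86-fold (322 against 173 CPM), Higd1a 1.77-fold and P4ha1, a collagen prolyl hydroxylase subunit, 1.52-fold. Adm, which encodes the vasodilator adrenomedullin, was too rare to be counted, at 16.4 against 1.92 CPM (8.55-fold). Its ratio was between 4.95 and 22.1 in the 12 libraries, and 4.35% of Arg1-high and 0.631% of other macrophage-like cells held a UMI of it. With every cell thinned to 1000 UMIs these shares were 1.19% and 0.152%.

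Genes of the glycolytic steps were higher throughout, with 11 of 11 past 1.5-fold and higher in 12 of 12 libraries. Pgk1, phosphoglycerate kinase, ran from 519 to 1148 CPM (median 847) in Arg1-high and from 249 to 393 (median 338) in other cells, 2.31-fold pooled and with no overlap. Tpi1, triosephosphate isomerase, differed 2.15-fold, aldolase Aldoa 1.92-fold and Pgam1, the mutase before enolase, 1.89-fold. The smallest ratio of this group was that of Gapdh, 1.61-fold (3928 against 2435 CPM). Gapdh, Eno1, Ldha and Pgam1 have near-identical copies in the mouse genome, so their counts are less certain.

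Among the genes of glucose entry, Slc2a1 differed 2.89-fold (185 against 63.8 CPM), with libraries at 112 to 393 against 43.6 to 84.2 and no overlap. The hexokinases Hk1 and Hk2 differed 1.63-fold and 1.60-fold. Slc2a3, the neuronal and leukocyte type of transporter, went the other way, with 2.21 against 3.03 CPM, lower in 12 of 12 libraries at a level too low to be counted. Lactate and pyruvate genes all passed the limit. Slc16a3, the lactate exporter, differed 2.28-fold, Pdk1, which holds pyruvate back from the tricarboxylic acid cycle, 1.87-fold and Ldha 1.81-fold. Mif differed 1.84-fold.

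The regulators of phosphofructokinase parted. Pfkfb3 differed 1.60-fold and was higher in 12 of 12 libraries, whereas Pfkfb4 stood at 18.1 against 17.8 CPM (ratio 1.01, or 0.994 with mitochondrial and ribosomal protein genes left out of the totals), higher in 6 libraries and lower in 6. Of the 28 further genes of the pathway that were listed beside the members, 13 reached the level at which genes were counted, of which 4 were at least 1.5-fold higher (3.84% of the 7316 genes) and 0 lower (1.6%). These were Ankrd37 (4.13-fold), Ddit4 (2.41-fold), Bnip3l (2.01-fold) and Mxi1 (1.70-fold), while the median of the 13 was 1.30. The 11 genes of the tricarboxylic acid cycle, summed, stood at 860 CPM in Arg1-high and 922 in other macrophage-like cells.

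**Figure D3:**
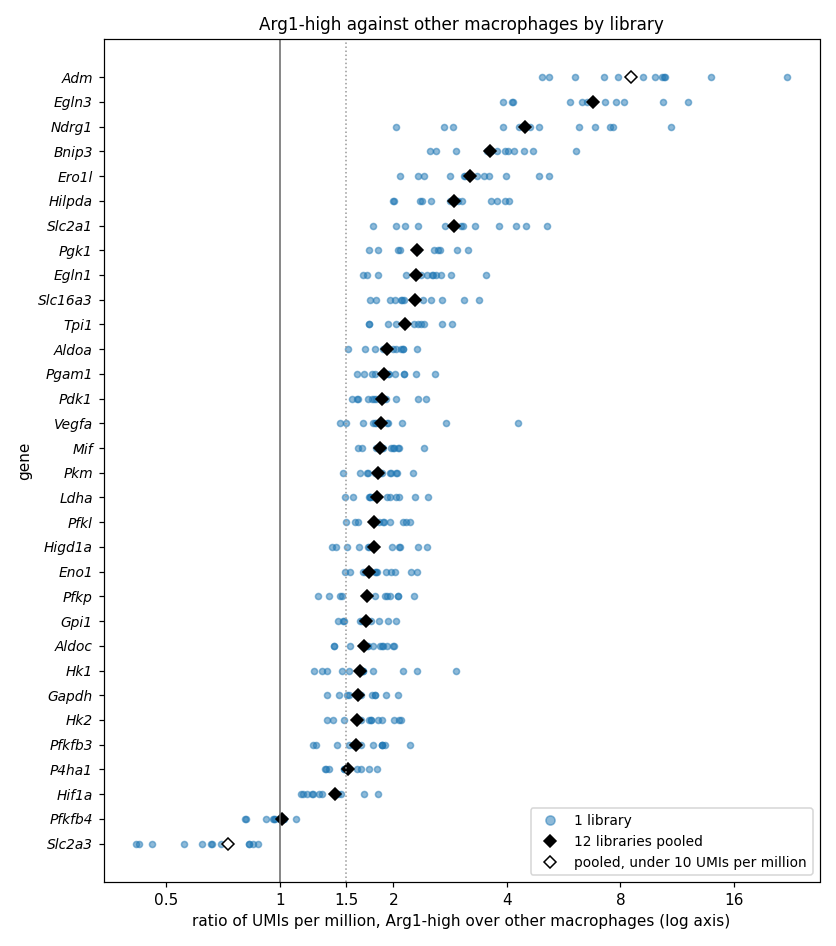
Ratio of CPM in Arg1-high over other macrophage-like cells (horizontal log axis) for the 32 genes (vertical axis); circles are single libraries, filled diamonds 12 pooled libraries, open diamonds genes under 10 CPM over both groups, and the dotted line marks 1.5. Circles of 30 genes lie right of 1 in 12 of 12 libraries, those of Pfkfb4 lie on both sides and those of Slc2a3 lie left of it.

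Other measures differed between the same cells. The neutrophil genes S100a8, S100a9 and G0s2, all 3 above 0 and summed, stood at 89.8 CPM in Arg1-high and 36.9 in other macrophage-like cells, beside 58742 in neutrophil-like cells. Among macrophage-like cells without a UMI of 6 neutrophil genes, 16373 of them Arg1-high, the summed ratio was 1.86 and 28 members passed the limit (3.63% of all genes there). The share of cells with at least 2 UMIs of Mki67 and Top2a was 11.8% against 17.6%, and without any UMI of these genes the ratio was 1.94. Median depth was 5926 against 5378 UMIs, mitochondrial genes took 4.27% against 4.75%, and C1qa stood at 4818 against 6165 CPM. Without libraries 4, 6 and 7, whose shares of Arg1-high cells (46.3%, 15.9% and 54.9%) were the 2 highest and the lowest, the summed ratio was 1.95 with 28 members past the limit (3.77% of all genes there).

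The limit on Arg1 cuts a range, so macrophage-like cells were also set out in 7 steps of Arg1. The summed members stood at 74.6 UMIs per 10000 in the 35662 cells without Arg1 and at 82.3, 92.9, 108, 132, 171 and 231 in the following steps, the last of 2580 cells with 50 or more. The top step was above the bottom step in 12 of 12 libraries, 2.17-fold to 3.74-fold with a median of 3.11-fold. Among the 30 members at 10 or more CPM, 23 were higher at every step, against 6.31% of 7316 genes. All of these 30 members were higher in the top than in the bottom step, against 40.6% of those genes. Of the rarer members, Adm was higher in the top step and Slc2a3 was lower.

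Egln3 went from 5.70 to 165 CPM between the outer steps, Bnip3 from 53.2 to 487, Ndrg1 from 22.6 to 263 and Slc2a1 from 53.7 to 335. Gapdh went from 2174 to 5400 and Hif1a from 156 to 295. The steps regroup the cells of the comparison at 10 per 10000 and are no second measurement. Pfkfb4 lay between 17.6 and 18.4 in all 7 steps. S100a8 moved along with the members, from 13.2 to 54.4 CPM, while C1qa moved from 6175 to 3278. The share of cycling cells went from 14.4% over 29.0% in the second step to 5.85%. Median depth was 4007.5 UMIs without Arg1, 10310 in the second step and 5578.5 to 6098 in the others. A cell with Arg1 comes under 2 per 10000 only if it is deep, and deep cells also reach 2 cycling UMIs more easily. The part of these measures in the steps was not tested.

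**Figure D4:**
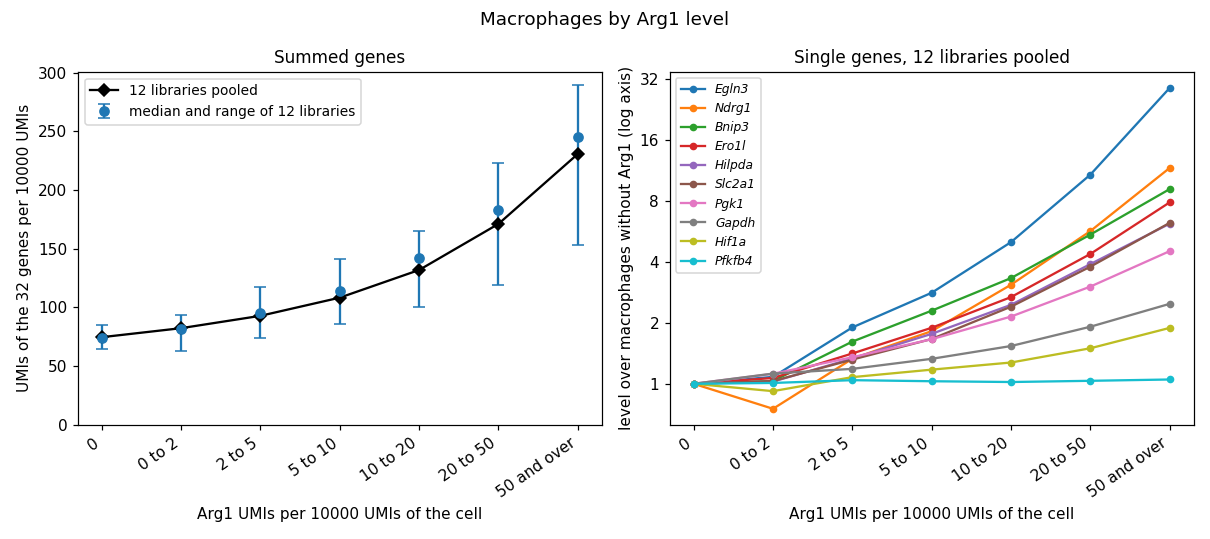
Macrophage-like cells in 7 steps of Arg1 UMIs per 10000 UMIs of the cell (horizontal axes); left, UMIs of the 32 genes per 10000 UMIs, with pooled values as diamonds and the median and range of 12 libraries as circles and bars; right, the pooled level of 10 genes over that of cells without Arg1, on a log axis. The sum goes from 74.6 to 231, Egln3 has the steepest line and Pfkfb4 stays level.

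Neutrophil-like cells were compared with all macrophage-like cells next. Their summed members were 1.94-fold higher, or 1.64-fold as the median over the 10 libraries that held 50 or more of each. The median ratio over the 7320 genes counted was 0.485, a log2 shift of -1.05 against which the following ratios stand. Of 30 members counted, 19 were at least 1.5-fold higher (15.5% of the 7320 genes) and 1 was at least 1.5-fold lower (61.5%). Members higher in all 10 libraries numbered 13 (12% of the genes), and 1 was lower in all 10 (47%). For 9 of the 30 the library values were all above those of macrophage-like cells (8.22%), and for 1 they were all below (33.3%). Macrophage-like cells hold most of the UMIs, so the limit on low levels follows them. Weighting both classes equally in that limit gave 20 of 31 members higher (21.2% of 6840 genes) and 1 lower (54.2%), where the added member, Slc2a3, came in through neutrophil-like cells alone and so had to be higher. With mitochondrial and ribosomal protein genes left out of the totals, 16 members were higher (12.5% of the genes) and 1 lower (67%). By pooled ratios over all UMIs, the higher members took in 7 of 7 counted other hypoxia-induced genes, but 3 of 11 of the glycolytic steps. Higher in all 10 libraries were 3 of these 7 and 3 of these 11.

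Hilpda, the lipid droplet gene, ran from 957 to 6668 CPM over 10 libraries (median 3726) against 177 to 492 in macrophage-like cells. Its libraries fell far apart, with 957 in library 7, 991 in library 9 and 1447 in library 1, but 5480 in library 4, 6668 in library 10 and 5399 in library 11. Pooled, Hilpda stood at 4315 against 287, 15.0-fold, and 66.9% of neutrophil-like cells held a UMI of it at a median depth of 1355 UMIs, beside 10.4% of B cell-like cells at 1270. Thinned to 1000 UMIs per cell, which left 1825 of the 2820 neutrophil-like cells, the shares were 71.7% and 7.39%. Egln3 (397 against 20.6 CPM, 19.2-fold), Ero1l (839 against 102, 8.24-fold) and Slc16a3 (715 against 115, 6.20-fold) were also above every macrophage-like library value.

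Glucose entry and its control were high in the same cells. Slc2a3 ran from 56.7 to 342 CPM (median 147), against 1.84 to 3.93 in macrophage-like cells, a pooled ratio of 59.1 for a gene too rare over both classes to be counted. Slc2a1 differed 4.66-fold, Pfkfb3, which makes the activator of phosphofructokinase, 4.75-fold, the phosphofructokinase Pfkp 4.14-fold, and Hif1a 3.22-fold (569 against 176 CPM). Pfkfb4, level across macrophage-like cells, differed 2.33-fold and was higher in 10 of 10 libraries.

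Most glycolytic steps stayed under the limit in this comparison. Besides Pfkp, those past it were Pfkl (2.55-fold) and enolase Eno1 (1.56-fold), while pyruvate kinase Pkm was at 1.38-fold and higher in 10 of 10 libraries. Gapdh was at 2435 against 2792 CPM (ratio 0.872, higher in 2 of 10 libraries), Gpi1 at 341 against 377, Pgk1 at 531 against 446 and Tpi1 at 639 against 518, the last 2 higher in 5 of 10 libraries each. Aldoc, aldolase C, stood at 3.03 against 24.3 CPM. It was counted through macrophage-like cells alone, where it was higher, so its place as the 1 lower member was given by the limit on low levels. The 6 immediate early genes, summed, stood at 10763 CPM in neutrophil-like and 4007 in macrophage-like cells, and the tricarboxylic acid cycle genes at 310.0 and 907, and their part in these ratios was not tested. Retnlg-positive and Retnlg-negative neutrophil-like cells had summed levels of 202 and 199 per 10000. Without library 4, which held the most of these cells, the summed ratio was 1.82 and 18 members were at least 1.5-fold higher (15.5% of the genes there). Ndrg1 (1.52-fold) fell under the limit without any of libraries 1 to 4, and Ldha (1.52-fold) without library 5, 6, 8 or 11.

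The T cell-like cells, 6207 in all, had summed members at 70.9 per 10000, 0.685 of the macrophage-like level. Of the 30 members counted, 15 were at least 1.5-fold lower (27.4% of 7383 genes) and 3 at least 1.5-fold higher (20.8%), and without mitochondrial and ribosomal protein genes in the totals the numbers were 14 (22.8%) and 3 (28.9%). Pfkfb4 and Egln3 were counted through macrophage-like cells alone, where they were higher. With both classes weighted equally in the limit on low levels, Slc2a3 came in and Pfkfb4 went out, and 4 of 30 members were higher (26.7% of 7725 genes) and 14 lower (23.4%). Slc2a3 came in through T cell-like cells, where it was higher, so the fourth follows from that limit. In all 11 libraries 17 members were lower (30.8%) and 2 higher (22.5%), and the library values lay wholly below for 10 (20.3%) and wholly above for 1 (11.2%). Among the members counted, Vegfa had the smallest ratio, 0.0979 (20.5 against 209 CPM), followed by Pfkfb4 at 0.108 and Bnip3 at 0.229. Each of these genes was lower in 11 of 11 libraries. Hk2 was at 0.247 and Slc16a3 at 0.249, while Hk1, the other hexokinase, was 1.88-fold higher in T cell-like cells and Pfkp was 1.70-fold higher, each in 11 of 11 libraries.

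Hif1a was the third higher member (1.51-fold, 10 of 11 libraries), and it passed the limit narrowly, and it fell under 1.5 without library 1, 2, 3, 7, 8 or 9, each of which left 2 higher members. Slc2a3, under the level at which genes were counted, stood at 18.4 against 2.83 CPM and was higher in 11 of 11 libraries. As a measure of free RNA, Apoe stood in CD8 T cell-like cells at 4.16% and C1qa at 2.83% of the macrophage-like level, and S100a9 at 0.0478% of the neutrophil-like level. Hilpda in these cells was at 6.79% of the neutrophil-like and 102% of the macrophage-like level.

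Hif1a differed between the T cell-like classes. It stood at 495 CPM in CD4 T cell-like cells (libraries 189 to 875, median 520) against 192 in CD8 T cell-like cells (120 to 284, median 184). Within libraries it was higher in CD4 T cell-like cells in 10 of 10, while the ranges over libraries overlapped. Hilpda in CD8 T cell-like cells ran from 307 to 509 CPM in the 5 of libraries 1 to 6 that held 50 or more of them, and from 89.9 to 293 in the 6 libraries numbered 7 to 12. These values did not overlap, as for 3 of 28 counted members (Hilpda, Mif and Ero1l), against 0.718% of 7380 genes, while 0 members were higher in libraries 7 to 12 (1.08%). Mif and Ero1l parted by small gaps, 763 against 759 and 44.9 against 44.8 CPM between the nearest libraries. In neutrophil-like, Arg1-high and other macrophage-like cells 0 members parted the library sets in either direction, where the shares of genes higher in libraries 1 to 6 were 1.02%, 0.109% and 0.123% and those higher in libraries 7 to 12 were 0.346%, 0.123% and 0.343%. The sets differ in Y-linked transcripts as above, and how they map to treatment is not given in the labels.

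CD8 T cell-like cells with at least 2 UMIs of Mki67 and Top2a, 652 of 3416, were set beside the others, a split chosen after values had been seen. Their summed members were 1.31-fold higher, in 9 of 9 libraries that held 10 or more of each. Tpi1 (1.68-fold), Pgk1 (1.55-fold) and Ldha (1.53-fold) were the 3 of 28 counted members at or above 1.5-fold, against 10.9% of 7380 genes, and 0 were at least 1.5-fold lower (8.31%). In the 6 libraries that held 50 or more of each, 8 members were higher in every one (13.8%) and 0 lower (10.3%). With mitochondrial and ribosomal protein genes left out of the totals, 1 of the 3 stayed above the limit (9.69% of the genes). Hilpda stood at 289 against 295 CPM and Hif1a at 192 in both. Median depth was 5472 against 2746 UMIs.

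Some members differed between pairs of related classes, though for Vegfa other classes had as much. The pairs in this and the next paragraph were outside the planned comparisons, and no share over all genes was taken for them. They are descriptions of single genes. Vegfa stood at 232 CPM in NK cell-like cells, where libraries ran from 136 to 330, against 19.5 in CD8 T cell-like cells, where they ran from 8.51 to 43.3. The NK cell-like value was higher in 9 of 9 libraries that held 10 or more of each, 11.9-fold pooled, on 327 cells and 241 UMIs. A UMI of Vegfa was found in 41.3% of NK cell-like and 6.06% of CD8 T cell-like cells, or 20.3% and 1.97% at 1000 UMIs per cell. Neutrophil-like (460.2 CPM), monocyte-like (323) and Arg1-high cells (322) had higher pooled levels of Vegfa than NK cell-like cells, with library ranges that overlapped.

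Ndrg1 stood at 200.4 CPM in dendritic cell-like cells (138 to 319 over libraries, median 199) and 26.3 in other macrophage-like cells, higher in 12 of 12 libraries. Arg1-high cells lay between at 117 CPM pooled, with libraries up to 306. Within the dendritic cell-like cells, cells with UMIs of Fscn1 or Ccl22, genes of mature dendritic cells that have taken up a migratory state, had more Ndrg1 (297 against 116 CPM) and Pfkfb3 (201 against 30.8) than cells with Xcr1 or Clec9a, genes of cross-presenting dendritic cells. Pfkp went the other way, at 167 against 451. Each of these differences held in 12 of 12 libraries. Monocyte-like cells had Slc16a3 at 251 CPM and Hif1a at 351, beside 88.2 and 161 in other macrophage-like cells.

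**Figure D5:**
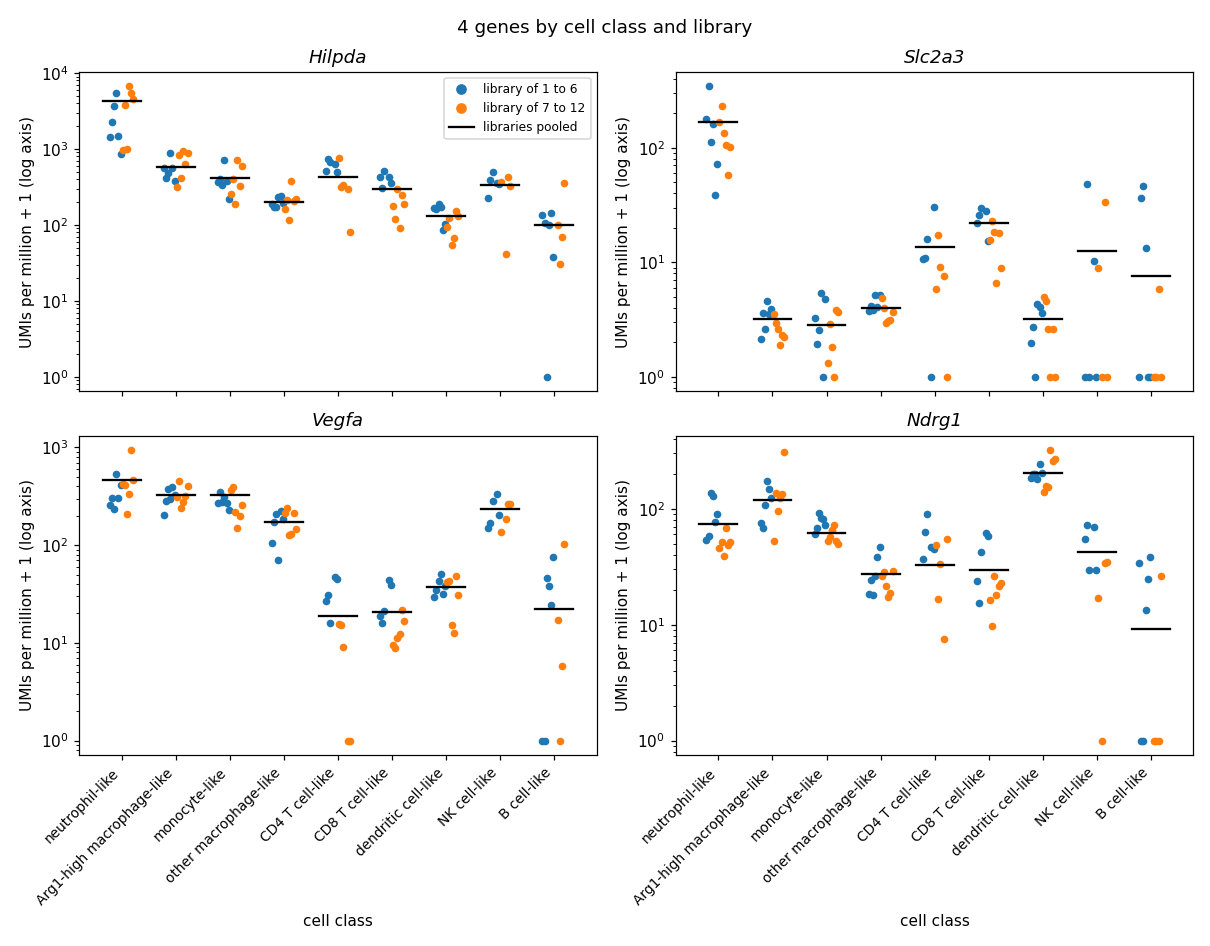
CPM plus 1 (vertical log axes) of Hilpda, Slc2a3, Vegfa and Ndrg1 in 9 cell classes; points are single libraries with at least 10 cells of the class, coloured by library number, and lines are all libraries pooled. Hilpda and Slc2a3 are highest in neutrophil-like cells, Ndrg1 in dendritic cell-like cells, and Vegfa in NK cell-like cells (232 pooled) lies near the level of macrophage-like cells and far above the T cell-like classes.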

How the data were processed

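CD45+ cells of 12 tumors were measured with 10x Genomics 3' libraries. The authors deposited 1 pooled matrix of UMI counts, not normalized. The submitters' processing notes name mm10, Seurat and Cell Ranger 2.1.1, while the matrix header gives Cell Ranger 3.0.2. The authors' stated limits were applied (more than 200 and fewer than 5000 genes, at most 10% mitochondrial UMIs). Cells were gated on marker UMIs, with Arg1-high at 10 per 10000 UMIs. No doublet caller was run. Up to 20% of a cell's lineage UMIs could come from other lists, so mixed barcodes may remain, and leaving out the 5% deepest cells was an alternative.

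Members and gene lists were chosen with earlier results of these data known. UMIs were summed per class and library and divided by total UMIs (CPM, or per 10000 for the sum). A gene counted as higher at a ratio of 1.5 or more and 10 CPM over both groups, with the same share over all genes as background, and was named by role. Ratios count as unmoved within 1 SD of the library ratios. The ratio was tested on simulated counts. Intervals are exact Poisson at 95% and cover counting error only. The matrix is 1 sample without a map from libraries to mice, so the planned edgeR test of EZH2i against vehicle was not run. Gene identifiers were matched to GENCODE M21 (GRCm38) and promoters to RefSeq, with Ero1l found under its current symbol. Scripts ran under Python 3.11.15 with pandas 2.3.3, numpy 2.4.6 and scipy 1.17.1, and figures were drawn in matplotlib 3.10.9.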

Additional observations from a re-analysis of the deposited data

How the results depend on the processing

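EZH2i and vehicle could not be paired because the library numbers carry no replicate number of the labels, and no test between these groups was made. Cell classes were compared within libraries. None of the 3 summed ratios changed direction under the alternatives run. No alternative left out Hilpda, which gave 21.5% of the members' UMIs in neutrophil-like cells. Over all alternatives that keep 12 libraries or 1 set of 6, the summed ratio of Arg1-high over other macrophage-like cells was 1.75 to 2.02, that of neutrophil-like over macrophage-like cells 1.64 to 2.34 and that of T cell-like over macrophage-like cells 0.576 to 0.799. Both ends of the T cell-like range came from the library sets, 0.576 in libraries 7 to 12 alone and 0.799 in libraries 1 to 6 alone. Leaving out each library in turn gave 1.82 to 1.96, 1.82 to 2.03 and 0.666 to 0.732. The number of members at least 1.5-fold higher in Arg1-high cells was 26 to 29 under all alternatives but 1 (2.87% to 5.24% of all genes). The 29 were of 32 members counted at 1 or more CPM, and the other numbers were of 30. Without single libraries the number was 27 to 28 (3.07% to 4.33%). At a limit of 2-fold, which can only lower the number, it was 10, against 1.30% of all genes. Of the 32 members, 31 were higher at any size of ratio (44.2% of the genes counted). Without mitochondrial and ribosomal protein genes in the totals it was 30 (38.4%), where Pfkfb4 went from 1.01 to 0.994. Both numbers take in Adm, and Adm and Slc2a3 were too rare to be among the genes counted.

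The highest over the lowest library level of the summed members in macrophage-like cells was 1.51. It was 1.51, 1.53 and 1.52 with gates at 60%, at 95% and at 4 UMIs, 1.48 with no filter on cells, 1.45 with a mitochondrial limit of 5%, 1.51 without mitochondrial and ribosomal protein genes, 1.62 thinned to 1000 UMIs, 1.56 without the 5% deepest cells, 1.54 without Gapdh, 1.49 in libraries 1 to 6, 1.22 in libraries 7 to 12, and 1.40 to 1.51 without single libraries.

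Alternatives on neutrophil genes, cycling genes and heat shock genes (1.81-fold with 26 members, against 3.06% of all genes, without a UMI of 4 of these), and those that drop libraries 4, 6 and 7 or library 8, or weight both classes equally in the limit on low levels, were chosen after seeing the data. The comparison with keratin-positive tumor cells was not run, since 0 cells passed the gate and 1 cell did at 60%. Low counts limit Slc2a3 and Adm in macrophage-like cells, and few cells limit the basophil or mast cell-like, plasmacytoid and collagen-gated classes.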

Other observations

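Values of the small classes rest on few cells. In the 42 basophil or mast cell-like cells Ndrg1 stood at 279 CPM (33 UMIs, exact Poisson 95% interval 192 to 391), Ero1l at 262 (31 UMIs, 178 to 372) and Ldha at 1056 (125 UMIs, 879 to 1258), while Pfkfb3 had 0 UMIs. Ero1l was higher in neutrophil-like cells (839 CPM), and Ldha was at 1155 CPM in Arg1-high cells. The 125 collagen-gated cells had the highest Mif level of all classes, 2247 CPM, above macrophage-like cells in 4 of 4 libraries that held 10 or more of them, and Higd1a at 734 CPM. With so few cells these values are descriptions of counts from 9 to 11 pooled libraries.

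The 21746 cells in no class had the summed members at 102 per 10000, beside 104 in macrophage-like cells, and Hilpda at 522 CPM, between the macrophage-like and neutrophil-like levels. B cell-like cells had the lowest summed level, 32.1 per 10000, and 165 of their 345 cells came from library 10.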
